A study of Mus musculus with 1528 samples.

Results

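The genes described here are 8 genes of macrophage cell fusion and of the Trem2 receptor: *Dcstamp*, *Ocstamp*, *Atp6v0d2*, *Cd9*, *Cd81*, *Trem2*, *Tyrobp* and *Gpnmb*. They were chosen by name and matched by Ensembl identifier to 8 of the 55421 genes in the table of counts, and all 8 were among the 17034 genes tested. Macrophages grown from bone marrow in CSF1 (BMDMs), from 2 wild-type C57BL/6 mice, were kept for 24 h in IL4+IL13, with or without TNF, at 10 ng/ml of each cytokine. The groups are called IL4+IL13+TNF and IL4+IL13. Both groups therefore received IL4+IL13 and differed only in TNF. Single cells were sorted into 4 plates, each with both treatments of 1 mouse. The mouse is read from the number, 1 or 2, in the sample titles, and the paper describes 2 independent experiments. Every well became a library of its own by Smart-seq2, a full-length method without molecular identifiers. The comparison asks how TNF alters these genes in macrophages under an IL4-type (M2) stimulus.

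Macrophages exposed to IL4 can merge into multinucleated giant cells, and in bone the same lineage merges into osteoclasts under RANKL. DC-STAMP and OC-STAMP are membrane proteins that fusing precursors need, and the d2 subunit of the vacuolar proton pump and several tetraspanins act at the same step or limit it. TREM2 is a lipid-sensing surface receptor that signals through the adaptor DAP12, the product of *Tyrobp*, and it takes part in the fusion of osteoclast precursors and in the response of macrophages to lipids. GPNMB is a glycoprotein of lysosomes and the cell surface that accumulates in lipid-laden macrophages.

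Of 1524 wells, 1386 were kept, 357 and 347 from mouse 1 and 333 and 349 from mouse 2 (IL4+IL13 first, IL4+IL13+TNF second). Kept wells held 200235 to 6122892 fragments on genes, and the median per mouse and treatment was 447264 to 490310. The replicate is the mouse, so counts were summed over cells to 4 sums. For a single value, 2 sums against 2 leave 0.3333 as the smallest p of an exact two-sided permutation test. Of 12 macrophage markers, *Adgre1*, *Csf1r*, *Cd68*, *Lyz2* and *C1qb* were present in 99.6% or more of the cells under each treatment. *Mrc1*, *Cd14*, *C1qc* and *Itgam* were present in 93.7% to 99.7%. The remaining markers were in fewer cells (IL4+IL13 first, IL4+IL13+TNF second). *C1qa* was in 71.4% and 84.6%, *Fcgr1* in 62.5% and 33.3%, and *Mertk* in 32.5% and 22.6%. Markers of lymphoid cells summed to between 0.238 and 0.570 CPM (counts scaled to library size) over 7 genes, those of stromal cells to between 0.930 and 2.36 CPM over 6 genes, and those of neutrophils to between 1.03 and 5.50 CPM over 8 genes. Of 6 osteoclast markers, *Calcr* and *Oscar* were at 0.362 CPM or less, each in at most 0.580% of the cells of a treatment. The other 4 were present: *Ctsk* in 39.3% of cells with IL4+IL13 and 50.1% with TNF, *Itgb3* in 43.04% and 23.99%, *Acp5* in 14.8% and 26.0%, and *Mmp9* in 2.32% and 14.5%. The 6 summed to between 84.8 and 99.5 CPM, and their part in the results was not tested. *Clec4e*, a TNF-inducible lectin receptor, showed that the labelled TNF wells had responded: it was at 19.2 and 21.7 CPM with IL4+IL13 alone and at 665 and 723 CPM once TNF was added. It was the 1 gene of the whole table past an adjusted p of 0.05 in edgeR's quasi-likelihood test with treatment as the only term.

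In that fit, 0 of the 8 genes passed in either direction, where 0.00587% of all tested genes passed as higher and 0% as lower. 3 of the 8 had an unadjusted p under 0.05, *Dcstamp*, *Atp6v0d2* and *Trem2*, where 1380 of the 17034 genes tested did. DESeq2 called 1 of the 8, *Dcstamp*, where it called 1.98% of the genes it tested as higher and 1.9% as lower. With limma on mean CPM per cell 0 of the 8 were called, and over all genes tested 1 was called higher and 0 lower. The mouse can be fitted as a block because both treatments carry the same mouse numbers and lie on the same plates. With the mouse as a block, 1 gene was called higher, *Dcstamp*, and 1 lower, *Trem2*. In the blocked fit 1.94% of all tested genes were called higher and 1.88% lower, 3.82% in all. The blocked value stands beside the first one wherever it changes the call.

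**Figure D1:**
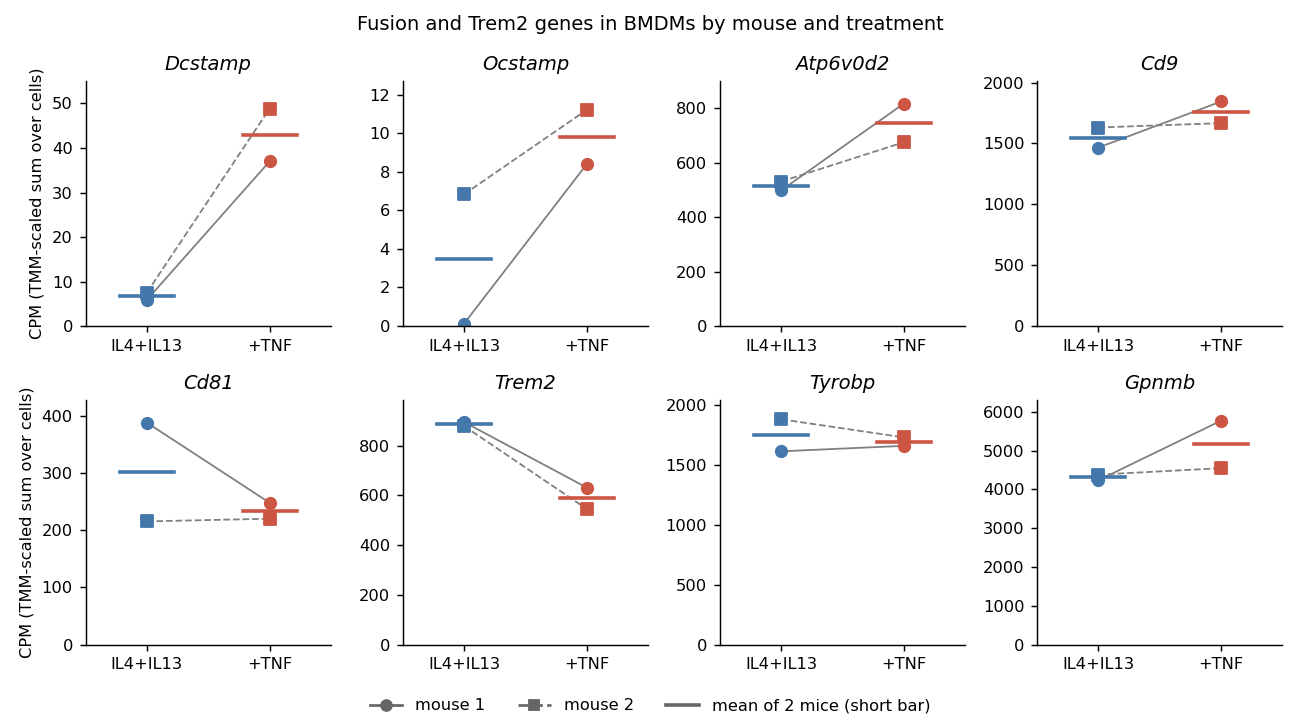
CPM of the 8 genes, scaled by edgeR's TMM method, in the 4 sums over cells (circles mouse 1, squares mouse 2, lines join the 2 treatments of a mouse, short bars are the means of 2 mice, each axis from 0). *Dcstamp*, *Ocstamp*, *Atp6v0d2*, *Cd9* and *Gpnmb* lie higher with TNF in both mice, *Cd9* and *Gpnmb* only slightly in mouse 2. *Trem2* lies lower in both, and *Cd81* and *Tyrobp* move in opposite directions in the 2 mice.

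*Dcstamp* (ENSMUSG00000022303, mm10 chr15:39745930-39760938, plus strand) encodes DC-STAMP, the multi-pass membrane protein that dendritic cells and osteoclast precursors share. Its level was 5.88 and 7.49 CPM with IL4+IL13 alone and 37.0 and 48.8 CPM once TNF was added in mouse 1 and mouse 2. The treatments did not overlap, and the ratio was 6.29 in mouse 1 and 6.52 in mouse 2. The means were 6.68 ± 1.14 and 42.9 ± 8.38 CPM (SD, n = 2 mice). The log2 fold change was 2.68 ± 0.27 (SE) with an edgeR adjusted p of 0.135, and with the mouse as a block it was 2.68 ± 0.15 with an adjusted p of 0.00688. DESeq2, without the block, gave an adjusted p of 8.57e-16, where it called 1.98% of the genes it tested as higher and 1.9% as lower. By unadjusted p, *Dcstamp* took place 20 of the 17034 genes.

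The transcript was in a minority of cells. With every cell thinned to 339000 fragments, at least 1 *Dcstamp* fragment was found in 18 of 332 cells (5.42%, 95% exact interval 3.24% to 8.43%) and 35 of 309 cells (11.3%, 8.02% to 15.4%) with IL4+IL13. With IL4+IL13+TNF it was found in 64 of 303 cells (21.1%, 16.7% to 26.2%) and 63 of 306 cells (20.6%, 16.2% to 25.6%). The share was 12.5 ± 4.55 percentage points higher with TNF (SD of the 2 mice), and without thinning it ran from 7.84% to 24.1%. Of 10 genes that mark unrelated tissues, 9 were found without thinning in 0% to 2.44% of cells, below every *Dcstamp* share, and the tenth, *Nphs1*, was found in 63.8% and 72.6%. Requiring 5 fragments left 1.81% and 2.59% of cells against 13.9% and 15.4%, a difference of 12.4 percentage points.

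Cells that held the transcript held more of it with TNF. Among positive cells the median was 2.40 and 2.50 CPM with IL4+IL13, about what 1 fragment gives, and 29.4 and 123 CPM once TNF was added. The 5% of cells with the most *Dcstamp* supplied 99.1% and 97.7% of its summed per-cell CPM with IL4+IL13 and 81.4% and 61.4% with TNF. Single cells weighed heavily: the highest cell of each mouse and treatment held 25.4% and 31.6% of the summed per-cell CPM with IL4+IL13 and 23.1% and 8.51% with TNF. Without that cell the level was 3.93 and 4.88 CPM with IL4+IL13 and 29.0 and 43.5 CPM with TNF, still apart. With the highest *Dcstamp* and *Ocstamp* cells left out, the blocked fit gave 3.04 ± 0.21 with an adjusted p of 0.00152, where it called 3% of all genes higher and 3.37% lower. On the 4 plates the log2 ratio of TNF over IL4+IL13 was 0.97, 4.49, 2.39 and 2.78, so that *Dcstamp* was higher with TNF on 4 of 4 plates but by very different factors. The 6 dendritic cell markers together were also higher with TNF, at 8.39 and 12.4 CPM against 31.2 and 209 CPM, and most of that was *Ccr7*, a chemokine receptor, at 21.4 and 195 CPM with TNF; their part in the *Dcstamp* difference was not tested.

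*Ocstamp* (ENSMUSG00000027670, chr2:165393760-165400405, minus strand) encodes OC-STAMP, the partner of DC-STAMP in osteoclast and giant cell fusion. It was at 0.121 and 6.84 CPM with IL4+IL13 alone and at 8.40 and 11.2 CPM once TNF was added. Both TNF sums lay above both IL4+IL13 sums, but mouse 1 had 22 fragments in all with IL4+IL13 and mouse 2 had 1153, so the mice differed more from each other than the treatments did in mouse 2. The ratio was 69.5 in mouse 1 and 1.64 in mouse 2. The gene passed the filter on low values through the TNF cells (found in 5.03%, against 3.91% with IL4+IL13, where 5% was required). The log2 fold change was 1.496 ± 1.51 with an edgeR adjusted p of 0.902, and the values without 1 of the sums ran from 0.51 to 6.34. With the mouse as a block it was 3.10 ± 1.43 with an adjusted p of 0.297. Without the highest cell of each sum the level was 0.0275 and 2.56 CPM with IL4+IL13 and 6.01 and 6.93 CPM with TNF.

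At equal depth *Ocstamp* was found in 4 of 332 cells (1.20%) and 16 of 309 cells (5.18%) with IL4+IL13 and in 11 of 303 cells (3.63%) and 17 of 306 cells (5.56%) with TNF. Cells with 5 or more fragments were 0.301% and 1.29% against 2.97% and 4.25%. The lowest of the shares at 1 fragment is within that of genes of unrelated tissues, and the exact intervals of the mouse 2 shares, 2.99% to 8.27% and 3.27% to 8.75%, overlap almost entirely. Of the summed per-cell CPM with IL4+IL13, 1 cell held 60.9% in mouse 2 and 1 cell held 75.6% in mouse 1. On 3 of 4 plates *Ocstamp* was higher with TNF, and on the remaining plate, of mouse 2, it was 10.8 CPM with IL4+IL13 and 6.34 CPM with TNF.

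*Ocstamp* was more frequent in cells with *Dcstamp* than in cells without it, under both treatments. Of the cells with *Ocstamp*, 10 of 11 in mouse 1 and 12 of 17 in mouse 2 also held *Dcstamp* with IL4+IL13+TNF, against 1 of 4 and 3 of 16 with IL4+IL13. Put the other way, *Ocstamp* was in 15.6% and 19.05% of the *Dcstamp* cells with TNF and in 0.418% and 2.06% of the rest. With IL4+IL13 it was in 5.56% and 8.57% of the *Dcstamp* cells and in 0.955% and 4.74% of the rest. Spearman's correlation of their CPM across cells was 0.33 and 0.28 with TNF and 0.04 and 0.03 with IL4+IL13 in mouse 1 and mouse 2. The cell counts are over 303 to 332 cells at equal depth and the correlations over 333 to 357 cells, each of 1 mouse, so that the cells share culture, plates and sequencing, and most cells are at 0 for both genes. Whether the difference between treatments exceeds that between mice was not tested.

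**Figure D2:**
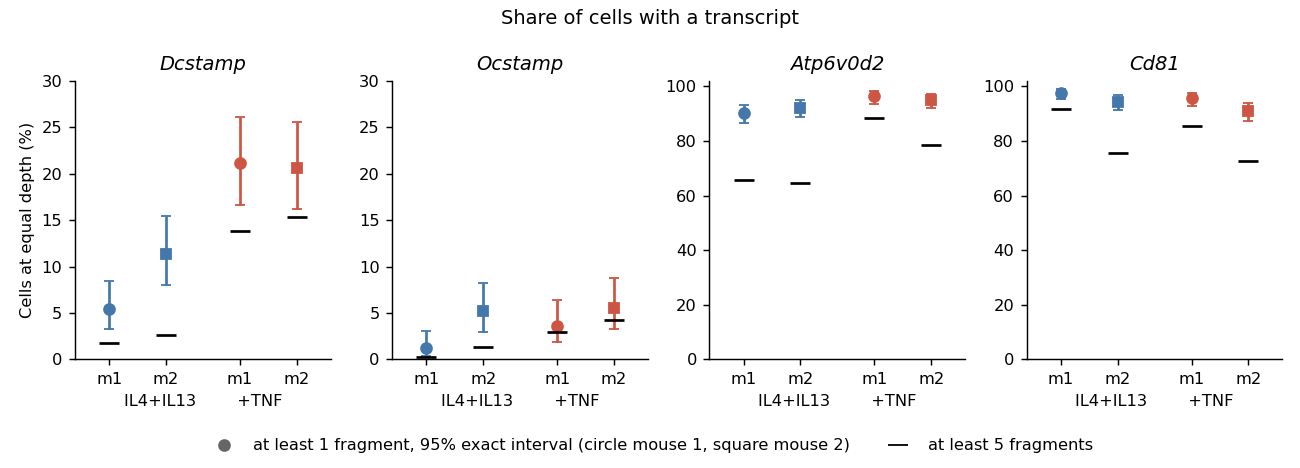
Percent of cells, at 339000 fragments per cell, with at least 1 fragment (circles mouse 1, squares mouse 2, with 95% exact intervals that cover counting error only) and with at least 5 fragments (black dashes) of 4 genes, by mouse (m1, m2) and treatment. The *Dcstamp* points lie at 5.42% and 11.3% with IL4+IL13 and at 21.1% and 20.6% with TNF, while *Cd81* is lower in mouse 2 than in mouse 1 under both treatments.

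*Atp6v0d2* (ENSMUSG00000028238, chr4:19876841-19922605, minus strand) encodes the d2 subunit of the membrane part of the vacuolar proton pump, the form of subunit d found in osteoclasts and giant cells. Its level was 499 and 531 CPM with IL4+IL13 alone and 818 and 676 CPM once TNF was added. The treatments did not overlap, with ratios of 1.64 and 1.27 in mouse 1 and mouse 2. The log2 fold change was 0.54 ± 0.16 with an edgeR adjusted p of 0.487, and it was 0.0784 with the mouse as a block, so neither fit called it. Most cells held the gene at equal depth, 90.4% and 92.2% without TNF against 96.4% and 95.1% in its presence. Cells with 5 or more fragments differed more, 65.7% and 64.7% against 88.4% and 78.4%. The median cell went with it, from 220 and 244 CPM with IL4+IL13 to 631 and 502 CPM with TNF, while the coefficient of variation across cells was 1.29 and 0.982 (means of 2 mice). *Atp6v0d2* was higher with TNF on 4 of 4 plates, with log2 ratios between 0.22 and 0.63.

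*Cd9* and *Cd81* encode tetraspanins, small membrane proteins that organize surface receptors and that in macrophages restrain fusion when present together. *Cd9* (ENSMUSG00000030342, chr6:125460266-125494791, minus strand) was at 1466 and 1631 CPM with IL4+IL13 and at 1845 and 1667 CPM with TNF. The groups did not overlap, but the gap between the closest sums was smaller than the spread within either treatment, and the edgeR adjusted p was 0.850. Its processed copy *Cd9-ps* on chr7 took 18621 to 21929 fragments per sum, 6.77% to 7.67% of those of *Cd9*, and because the copies are alike, the split of fragments between them is uncertain. By plate CPM, which was not scaled by TMM, *Cd9* was higher with TNF on 3 of 4 plates.

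*Cd81* (ENSMUSG00000037706, chr7:143052739-143067934, plus strand) was at 389 and 216 CPM with IL4+IL13 alone and at 248 and 220 CPM once TNF was added. The treatments overlapped: mouse 1 was lower with TNF, with a ratio of 0.639, and mouse 2 was not, with a ratio of 1.02. The log2 fold change was −0.37 ± 0.31 with an edgeR adjusted p of 0.872, and without the IL4+IL13 sum of mouse 1 it was 0.11. The median cell was lower with TNF in both mice, at 334 and 160.5 CPM with IL4+IL13 and at 202 and 129 CPM with TNF. Unlike *Cd9*, which was found in at least 99.7% of cells in each sum, *Cd81* was found at equal depth in 97.6% and 94.5% of cells with IL4+IL13 and in 95.7% and 91.2% with TNF. Exons of *Gm26728* and *R74862* on the opposite strands overlap 218 bases of *Cd9* and 104 bases of *Cd81*, and the counting did not use strand.

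*Trem2* (ENSMUSG00000023992, chr17:48346401-48354147, plus strand) was lower with TNF. It was at 896 and 880 CPM with IL4+IL13 alone and at 632 and 546 CPM once TNF was added in mouse 1 and mouse 2. The treatments did not overlap, and the ratio was 0.705 in mouse 1 and 0.620 in mouse 2. The means were 888 ± 11.4 and 589 ± 60.9 CPM (SD, n = 2 mice). The log2 fold change was −0.59 ± 0.15 with an edgeR adjusted p of 0.377, and with the mouse as a block it was −0.60 ± 0.09 with an adjusted p of 0.0357. DESeq2 without the block gave an adjusted p of 0.173, so the call rests on the blocked fit.

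The *Trem2* difference lay across the cells, with hardly any at 0. The transcript was found in 100% of cells with IL4+IL13 and in 99.7% and 99.0% with TNF. The median cell was at 847 and 872 CPM with IL4+IL13 and at 565 and 473 CPM with TNF, and the 10th percentile was at 475 and 366 CPM against 299 and 174 CPM. *Trem2* was lower with TNF on 4 of 4 plates, with log2 ratios from −0.80 to −0.58. Cells with *Dcstamp* had about as much *Trem2* as cells without, 305 against 303 and 300 against 307 fragments per cell at equal depth with IL4+IL13, and 205 against 209 and 179 against 177 with TNF. The summed level of 10 cell cycle genes was lower with TNF in both mice, 1171 and 675 CPM against 671 and 403 CPM, and across cells *Trem2* correlated with it at −0.28 to −0.04; its part in the *Trem2* difference was not tested.

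*Tyrobp* (ENSMUSG00000030579, chr7:30413760-30417585, plus strand), which encodes the DAP12 adaptor of TREM2 and of other receptors, was at 1616 and 1884 CPM with IL4+IL13 and at 1662 and 1732 CPM with TNF. The TNF sums lay between the IL4+IL13 sums. The log2 fold change was −0.04 ± 0.14 with an edgeR adjusted p of 0.980, and without the IL4+IL13 sum of mouse 2 it was 0.073. Every cell at equal depth held *Tyrobp*, and its coefficient of variation across cells, 0.4004 with IL4+IL13 and 0.364 with TNF (means of 2 mice), was the lowest of the 8 genes. On single plates, where CPM was not scaled by TMM, the log2 ratios were −0.25 to −0.05. The receptor and its adaptor thus differed in these sums, but the difference between their fold changes was not tested.

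*Gpnmb* (ENSMUSG00000029816, chr6:49036546-49070929, plus strand) was at 4238 and 4383 CPM with IL4+IL13 alone and at 5775 and 4549 CPM once TNF was added. The sums did not overlap, but the ratio was 1.36 in mouse 1 and 1.04 in mouse 2, and the edgeR adjusted p was 0.783. It was found in every cell at equal depth, with a wide spread: the 10th and 90th percentiles were 1048 and 8501 CPM in mouse 1 and 940 and 9294 CPM in mouse 2 with IL4+IL13. With TNF they were 1418 and 10472 CPM and 711 and 8699 CPM. On single plates, where CPM was not scaled by TMM, the ratio was above 1 on 3 of 4. The log2 values were 0.39 and 0.32 in mouse 1 and 0.01 and −0.09 in mouse 2. In edgeR without TMM the median log2 fold change of all genes tested was −0.089.

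**Figure D3:**
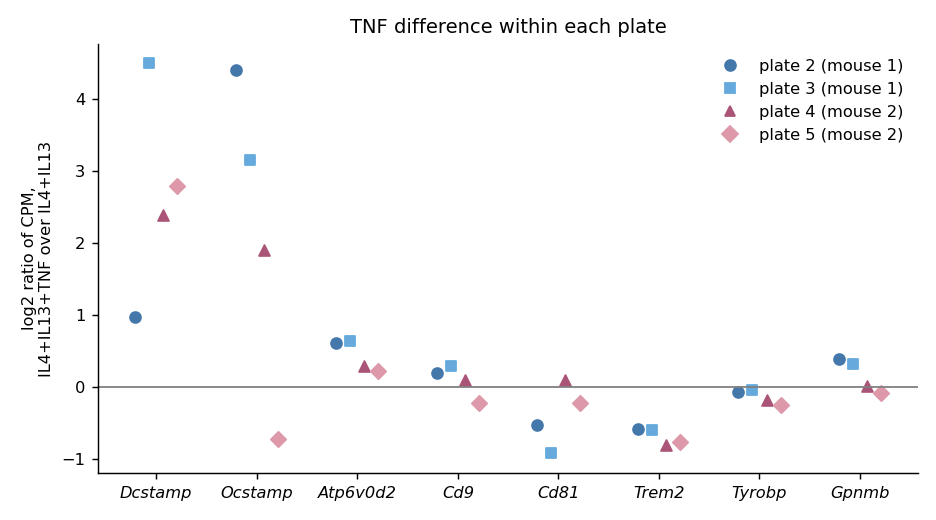
log2 ratio of CPM with IL4+IL13+TNF over IL4+IL13 within each of 4 plates (plates 2 and 3 from mouse 1, plates 4 and 5 from mouse 2), for the 8 genes. Here CPM was not scaled by TMM. *Dcstamp* and *Atp6v0d2* lie above 0 and *Trem2* and *Tyrobp* below 0 on 4 of 4 plates, and the 2 STAMP genes scatter most.

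*Trem2* and *Gpnmb* varied together across cells, as other pairs did. Both promoters match TGANTCA, a loose pattern for the AP-1 site that Jun and Fos proteins bind, so their windows are shown. The match reads TGAATCA in *Trem2* and TGACTCA in *Gpnmb*, and its part in the correlation was not tested. The RefSeq windows (GRCm38.p6, the assembly of mm10) run from 250 bases before to 50 bases after the start, and 4 of the 8 genes matched 1, *Cd9*, *Cd81*, *Trem2* and *Gpnmb*. Each is written 5′ to 3′ on the strand of the gene, and capitals mark TGANTCA (N is any base).

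Trem2, chr17:48346151-48346450, plus strand: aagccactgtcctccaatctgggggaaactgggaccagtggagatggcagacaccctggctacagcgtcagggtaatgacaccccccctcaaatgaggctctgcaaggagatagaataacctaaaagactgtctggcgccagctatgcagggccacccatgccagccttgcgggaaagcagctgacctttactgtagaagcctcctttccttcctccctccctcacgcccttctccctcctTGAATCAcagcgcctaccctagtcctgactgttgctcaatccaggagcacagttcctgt

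Gpnmb, chr6:49036268-49036567, plus strand: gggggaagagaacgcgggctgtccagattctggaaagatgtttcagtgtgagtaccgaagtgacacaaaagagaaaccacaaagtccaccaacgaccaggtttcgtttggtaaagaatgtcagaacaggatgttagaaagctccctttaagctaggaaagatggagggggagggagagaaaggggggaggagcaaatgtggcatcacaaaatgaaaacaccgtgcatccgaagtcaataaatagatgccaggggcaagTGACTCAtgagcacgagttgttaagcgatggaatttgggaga

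TGANTCA, searched on both strands, begins at base 242 of the *Trem2* window and at base 259 of the *Gpnmb* window, counted from 1 at the 5′ end. It was not in the *Cd9* and *Cd81* windows, and 2144 of 27025 windows of the same length (7.93%) hold it. The E-box pattern CANGTG, a loose form of the sites of MiT/TFE factors, begins at base 255 of the *Gpnmb* window. It reads CAAGTG there and overlaps the TGANTCA match. The pattern was found 2 times in the *Cd9* window, as CAGGTG and CACATG on the strand of the gene, and in 44.8% of all windows. GAGGAA, bound by PU.1, was read once in the *Trem2* window, on the minus strand, and in 28.3% of all windows. The NF-kB motif was in the *Cd9* and *Cd81* windows, 3 times in each, and in 50.4% of all windows. The lysosomal CLEAR core TCACGTG, the M-box core TCATGTG and the STAT6 motif were in 0 of the 4 windows and in 3.84%, 3.74% and 6.99% of all. Both cores contain the E-box letters. These matches describe letters and show no binding.

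Per kilobase of gene length (TPM from the summed counts), the 8 genes kept the same order under both treatments: *Tyrobp*, *Cd9*, *Gpnmb*, *Atp6v0d2*, *Trem2*, *Cd81*, *Dcstamp* and *Ocstamp*. The mean TPM of 2 mice was 5418 ± 798, 1564 ± 179, 1364 ± 86.0, 391 ± 32.7, 370 ± 9.78, 214 ± 79.1, 5.19 ± 1.09 and 2.01 ± 2.75 with IL4+IL13. With TNF it was 4755 ± 208, 1604 ± 91.9, 1479 ± 227, 514 ± 61.8, 222 ± 19.8, 152 ± 10.7, 30.1 ± 6.31 and 5.02 ± 1.09. Neighbours were not always apart. *Atp6v0d2* and *Trem2* overlapped with IL4+IL13, at 368 and 414 against 363 and 377 TPM, and were separate with TNF, at 557 and 470 against 236 and 208 TPM. *Cd9* and *Gpnmb* overlapped with TNF and not with IL4+IL13. The lengths are those in the table and cover every annotated exon, 667 bases for *Tyrobp* and 4946 for *Trem2*, so genes with long exons that these cells do not use come out low. Among all genes, *Tyrobp* ranked 19 to 23 by TPM in the 4 sums, and *Dcstamp* ranked 10204 and 9606 with IL4+IL13 and 3940 and 3177 with TNF.

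Across cells some of the genes formed a correlated set. The STAMP pair correlated at 0.33 and 0.28 with TNF but at only 0.04 and 0.03 with IL4+IL13. Over the 28 pairs, the mean of Spearman's correlation in the 4 groups of mouse and treatment ran from −0.12 to 0.48 with a median of 0.09, and 7 pairs exceeded 0.2. These 7 joined *Atp6v0d2*, *Gpnmb*, *Cd9*, *Trem2* and, through *Trem2*, *Tyrobp*. *Atp6v0d2* with *Gpnmb* was highest, at 0.44 to 0.54 over the 4 groups, followed by *Atp6v0d2* with *Cd9* at 0.42 to 0.50 and *Trem2* with *Gpnmb* at 0.24 to 0.39. *Trem2* with its adaptor *Tyrobp* was at 0.31 and 0.32 with IL4+IL13 and at 0.20 and 0.22 with TNF. *Atp6v0d2* correlated positively with *Trem2* in each group, at 0.26 to 0.33, although the 2 genes differed between treatments in opposite directions.

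*Cd81* stood outside this set. It was negative in each of the 4 groups against *Atp6v0d2*, *Cd9* and *Dcstamp*, with means of −0.11, −0.08 and −0.12. These values are close to 0, and that of *Cd9* with *Cd81* was −0.000315 without the cell filter. *Dcstamp* cells had less *Cd81* than the others in each group, at 106 against 128 and 46.3 against 80.0 fragments per cell at equal depth with IL4+IL13 and 60.0 against 84.8 and 63.9 against 77.7 with TNF. In the groups with TNF they had more *Atp6v0d2*, at 349 against 256 and 271 against 209 fragments. With IL4+IL13 they had 181 against 172 and 156 against 189. Correlations of the 8 genes with total fragments were between −0.04 and 0.13 in every group. With the number of detected genes they ran from −0.22 for *Tyrobp* to 0.19 for *Cd81*, and with the summed cell cycle genes they reached −0.45 for *Tyrobp*, −0.28 for *Trem2* and −0.27 for *Cd9* and *Gpnmb*. The part of these measures in the correlations between the 8 genes was not tested.

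**Figure D4:**
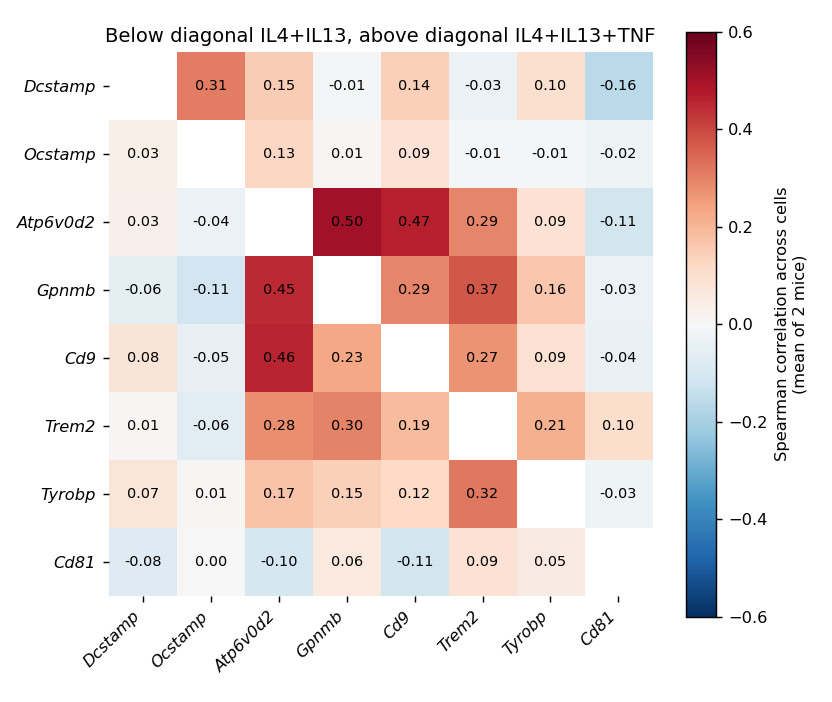
Spearman's correlation of CPM across cells for each pair of the 8 genes, as the mean of 2 mice, with IL4+IL13 below and IL4+IL13+TNF above the diagonal (red positive, blue negative). The block of *Atp6v0d2*, *Gpnmb*, *Cd9* and *Trem2* is red on both sides, and *Dcstamp* with *Ocstamp* is 0.03 below and 0.31 above the diagonal.

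Among the genes found in at least 25% of cells, those most like each of the 8 were ranked by the same mean correlation, over 10649 or 10650 genes. *Dcstamp* was most like *Itgax* (0.29), which encodes CD11c, *Clec4b1* (0.28) and the MHC class II gene *H2-Ab1* (0.26), and *Mmp12*, a macrophage elastase, was sixth at 0.25. *Ocstamp* was most like *Clec4b1* (0.21), *Csf2rb* (0.15), a receptor chain for GM-CSF, and *Clec4a2* (0.15). *Atp6v0d2* was most like *Anxa1* (0.59), *Cd63* (0.55), a lysosomal tetraspanin, and the *Cd63-ps* copy (0.54). *Cd9* was most like *Cd9-ps* (0.92), with which it may share fragments, *Anxa1* (0.50) and *Atp6v0d2* (0.46). *Cd81* was most like *Rnase4* (0.27), *Igf1* (0.22) and *Maf* (0.19), the last a transcription factor of resident macrophages.

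*Trem2* was most like *Ctsb* (0.37), *Cd63* (0.36) and *Ctsd* (0.36), and *Gpnmb* most like *Ctsd* (0.49), *Atp6v0d2* (0.48) and *Cd63* (0.47). *Ctsb* and *Ctsd* encode lysosomal cathepsins. *Tyrobp* was most like *Fcer1g* (0.35), another immunoreceptor adaptor of macrophages, *B2m* (0.31) and *Ctss* (0.31). *Fabp4*, a fatty acid–binding protein, correlated with *Gpnmb* at 0.18 to 0.32 in the 4 groups and with *Dcstamp* at −0.12 to 0.05.

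Other genes of the same pathways were read from lists in the same fits. Over the 17034 genes the median log2 fold change was 0.004, and the blocked fit called 1.94% higher and 1.88% lower. Those shares are the background for the blocked counts of each list below. Of 17 other fusion genes tested, 1 was called higher and 0 lower with the mouse as a block, and their median was 0.06. The gene called was *Mmp9*, a secreted gelatinase, which was at 0.0550 and 0.0712 CPM with IL4+IL13 and at 21.8 and 4.51 CPM with TNF. It passed the filter on low values only through the TNF cells (found in 14.5%, against 2.32% with IL4+IL13, where 5% was required). It thus entered the fit through the treatment in which it is high. The lowest was *Adam8* at −0.39, with an adjusted p of 0.108 with the mouse as a block. Surface partners known from macrophage fusion, *Cd47* and *Sirpa*, had log2 fold changes of 0.16 and 0.15 with blocked adjusted p-values of 0.357 and 0.359.

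Of 15 osteoclast genes tested, 3 were called higher and 1 lower in the blocked fit, with a median of −0.02 in the fit of treatment alone. The 3 were *Car2*, a carbonic anhydrase, at 0.583 and 0.777 against 11.5 and 12.2 CPM, *Src*, a kinase of the osteoclast ruffled border, and *Acp5*, tartrate-resistant acid phosphatase. *Itgb3*, the integrin β3 chain of osteoclasts, was the 1 called lower, at 25.6 and 34.3 against 9.25 and 13.6 CPM. *Ctsk*, the collagen-degrading cathepsin of osteoclasts, was at 63.5 and 53.4 against 51.5 and 52.2 CPM.

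Of 18 other V-ATPase subunits, 1 was called higher in the blocked fit, *Atp6v0c*, a subunit of the membrane ring, with a log2 fold change of 0.68 ± 0.09 and an adjusted p of 0.0279. *Atp6v0d1*, the widely expressed form of subunit d, was at 233 and 293 CPM with IL4+IL13 and 208 and 245 CPM with TNF, the lowest of the list at −0.22 with a blocked adjusted p of 0.295. The median of the list was 0.06. Of 16 other tetraspanins and partners, *Cd82* was the 1 called, higher at 24.5 and 30.4 against 51.5 and 53.5 CPM, and the lowest was *Tspan14* at −0.55 with a blocked adjusted p of 0.145.

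Of 17 genes of Trem2 signalling and the TREM family, 2 were called higher and 2 lower in the blocked fit, and the median was −0.21. *Apoe*, a lipoprotein ligand of TREM2, was lower, at 233 and 320 against 81.9 and 91.6 CPM, and so was *Cd33*, an inhibitory sialic acid receptor, at 84.9 and 97.0 against 36.7 and 33.1 CPM. *Adam17*, a protease that sheds TREM2 from the surface, was higher, at 131 and 222 against 404 and 421 CPM. *Clu*, another lipoprotein ligand, was the other, at 0.0110 and 0.332 against 0.811 and 82.3 CPM, so most of its level was in mouse 2. Like *Mmp9*, it passed the filter on low values only through the TNF cells (found in 9.05%, against 4.20% with IL4+IL13). The downstream kinase *Syk* had a blocked adjusted p of 0.0622.

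Of 20 genes of the lipid programme that accompanies Trem2 in tissue macrophages, 4 were called higher and 1 lower in the blocked fit, with a median of 0.34. They were *Itgax*, *Abca1*, a cholesterol exporter, the chemokine *Ccl6* and *Lgals3*, a galectin, while *Timp2*, a protease inhibitor, was lower. *Itgax* was at 8.43 and 23.1 CPM with IL4+IL13 and at 90.7 and 114 CPM with TNF. Of 9 MiT/TFE factors and genes akin to *Gpnmb*, 0 were called higher and 1 lower, *Fnip2*, a folliculin partner that acts on TFE factors, at 165 and 282 against 68.0 and 123 CPM. *Tfec* was the highest of this list at 0.50, with a blocked adjusted p of 0.0874. Besides the highest and lowest gene of each list, *Cd47*, *Sirpa*, *Src*, *Acp5*, *Ctsk*, *Cd33*, *Adam17*, *Syk*, *Abca1*, *Ccl6* and *Lgals3* were named after their values were seen.

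**Figure D5:**
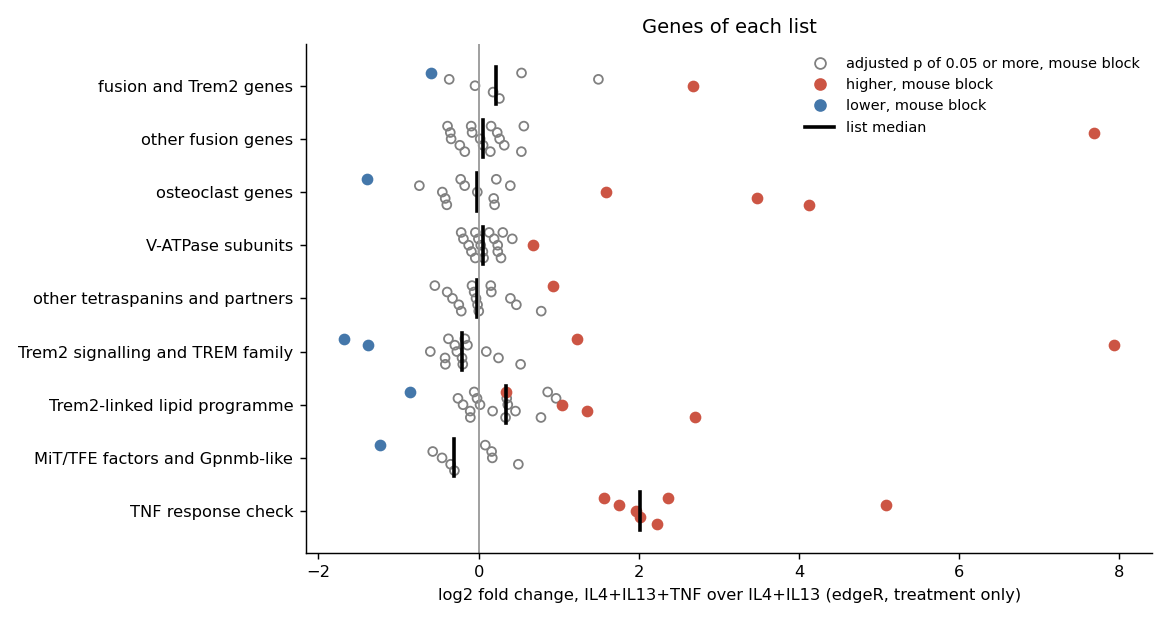
log2 fold change with TNF from edgeR with treatment as the only term for every tested gene of each list (1 point per gene, black bars are list medians), with genes called in the fit with the mouse as a block in red (higher) or blue (lower). The 7 TNF response genes lie at 1.56 and above, and the medians of the pathway lists lie between −0.30 and 0.34. The points beyond 7 are *Mmp9* and *Clu*, which passed the filter on low values only through the TNF cells.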

How the data were processed

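Single-cell Smart-seq2 libraries were measured. Per the file headers and the study's methods, the authors aligned fragments to mm10 with gsnap, counted uniquely mapped ones per Ensembl 98 gene with featureCounts 1.6.3 without strand, and deposited whole-number counts per gene and well. 8 columns that match no sample here were not used. Wells more than 3 median absolute deviations from their plate's median, low in total or detected genes or high in mitochondrial or spike-in share, were left out. For each mouse and treatment the counts of its cells were added up, and the sums were compared with edgeR 4.0.16 (quasi-likelihood test, TMM scaling, Benjamini-Hochberg adjustment, threshold 0.05) in R 4.3.3, on genes that passed edgeR's filter and had a fragment in 5% or more of the cells under either treatment. Both treatments carry the same numbers, 1 and 2, in the sample titles, read here as mice. Sums of 1 mouse deviated together (r = 0.562 over 17034 genes), so the mouse was also fitted as a block. Alternatives included DESeq2 1.42.0 and limma 3.58.1 on log2(CPM + 1). Shares, exact (Clopper-Pearson) intervals and correlations used Python 3.11.15 and scipy 1.17.1. Shares were taken at 339000 randomly drawn fragments per cell, without the 136 cells that had fewer. CPM of plates and of single cells was scaled to library size without TMM. Intervals cover counting error only, since reads without molecular identifiers are not independent molecules. No doublet caller was run on these singly sorted wells. The named genes are the 8, in each list those past the threshold or otherwise the highest and lowest log2 fold change, the 3 genes most similar to each of the 8, and *Itgax*, *Mmp12* and *Fabp4*; others were named after their values were seen, as the report says. The genes and lists were chosen with earlier results of these data known.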

Additional observations from a re-analysis of the deposited data

How the results depend on the processing

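With the mouse as a replicate block (paired fit), DESeq2 and the block without the cell of each sum highest in *Dcstamp* or *Ocstamp* (an alternative chosen after seeing the data), the *Dcstamp* log2 fold change was 2.68, 2.67 and 3.04 with adjusted p-values of 0.00688, 8.57e-16 and 0.00152. Over every alternative its adjusted p ran from 8.57e-16 to 0.185. *Trem2* was called at −0.60 (adjusted p 0.0357) with the block and at −0.59 (0.0199) with the block and those cells left out. The block changed no other call among the 8 genes. In these 3 settings, 1 of the genes fitted among the 8 was called higher each time, and 1, 0 and 1 lower. *Ocstamp* had no fold change with those cells left out, with fixed cell limits, or without the cell filter. Over all genes 331, 305 and 511 were called higher and 320, 293 and 574 lower, against 1 and 0 with treatment alone, and leaving out 1 sum gave 3 to 29 higher and 0 to 1 lower. Of the genes in the 7 pathway lists, 12, 8 and 19 were called higher and 5, 3 and 6 lower. Each list had 9 to 20 tested genes. The shares over all genes were 1.94%, 1.98% and 3% higher and 1.88%, 1.9% and 3.37% lower. Leaving out 1 sum, the fold change of *Cd81* ran from −0.73 to 0.11, turning without IL4+IL13 replicate 1, and that of *Tyrobp* from −0.16 to 0.073, turning without IL4+IL13 replicate 2. The cause was not tested. Of 108 fold changes under alternatives, 101 kept direction and call.

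Differences in share, in percentage points, moved to 18.2 for *Atp6v0d2*, −4.62 for *Cd81*, −1.82 for *Trem2* and −0.82 for *Gpnmb* when 5 fragments were required. With thinning to the 25th percentile of depth they were −3.69 for *Cd81*, −1.18 for *Trem2* and −0.19 for *Gpnmb*, and without the cell filter −5.22 for *Cd81*. By median CPM, *Cd81* was higher with TNF on 0 of 4 plates in place of 1, and *Dcstamp* and *Ocstamp* gave no value, their medians being 0. By Pearson's correlation *Atp6v0d2* with *Gpnmb* was 0.39, *Trem2* with *Gpnmb* 0.42 and *Cd9* with *Gpnmb* 0.17. Without the cell filter *Atp6v0d2* with *Trem2* and *Trem2* with *Tyrobp* were both 0.33, and *Cd9* with *Cd81* was −0.000315. With 2 mice, the sums limit *Ocstamp* most, since 22 fragments made up one of them.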

Other observations

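Other marker lists moved in part with the treatment. Of 12 macrophage markers, 2 were called higher and 3 lower with the mouse as a block, and their summed level was 18767 and 20146 CPM with IL4+IL13 and 31176 and 30493 CPM with TNF. Most of that was *Lyz2*, which encodes lysozyme: the other 11 markers summed to 7305 and 7430 CPM with IL4+IL13 and to 6274 and 6907 CPM with TNF, the opposite direction. Of 10 cell cycle genes, 0 were called higher and 6 lower in the same fit. Over all genes tested, that fit called 1.94% higher and 1.88% lower. *Ccr7* was called higher, with a blocked adjusted p of 0.00555 from edgeR, and was found in 9.28% of cells with IL4+IL13 and in 22.7% with TNF.

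Of 4 samples with no mouse number in their title, 3 have a column of counts. The labels of these 3 wells name IL4+IL13, and they entered no comparison. They held 279461, 354874 and 87198 fragments and 10802, 11121 and 8314 detected genes. The kept IL4+IL13 cells of mouse 1 and mouse 2 had medians of 479576 and 477262 fragments but 7874 and 7431 detected genes. Whether each of these wells held a single cell was not tested, so their values are not those of known single cells. *Trem2* was at 186, 245 and 183 CPM, *Gpnmb* at 3367, 3322 and 2167 CPM, *Atp6v0d2* at 508, 344 and 172 CPM and *Tyrobp* at 1002, 916 and 757 CPM. *Cd9* was at 1682, 1818 and 1032 CPM, *Cd81* at 154, 141 and 22.9 CPM and *Dcstamp* at 14.3, 11.3 and 11.5 CPM. *Ocstamp* was 0 in each of the 3.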
